A study of Homo sapiens with 4 samples.

Results

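The genes that make cholesterol and fatty acids were examined in embryoid bodies, the floating clumps that human embryonic stem cells form as differentiation starts, given TBBD or its vehicle. The gene set was fixed by name and holds 28 genes of the pathway, and a gene was measured where at least 1 probeset (a few probes that read one exon) carried its symbol alone. By that rule 27 of the 28 genes were measured, among 18640 genes in all. MSMO1 and SC5D were found under the older symbols SC4MOL and SC5DL. HSD17B7, which encodes a ketosteroid reductase of sterol synthesis, was not measured, because each of its 14 probesets is shared with the pseudogene HSD17B7P2.

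All samples were embryoid bodies of BG01V, a human embryonic stem cell line, and each was hybridised to an Affymetrix Human Gene 1.0 ST array. TBBD is named in the series title as an inhibitor of methylation of histone H3 at arginine 17, and it was given at 10 µM for 48 h, in general between day 2 and day 4 of embryoid body formation. The control embryoid bodies received DMSO. Each group held 2 arrays, called here TBBD 1, TBBD 2, DMSO 1 and DMSO 2 after the replicate numbers in the labels. The embryoid bodies were grown in medium with serum and a serum replacement, they derive from 1 cell line, and whether a replicate was a culture of its own is not labelled, so the p-values reflect the spread of these arrays alone, which may be technical.

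Cholesterol synthesis starts from acetyl-CoA. The mevalonate steps build isoprenoid units and join them into farnesyl diphosphate, and the sterol steps turn that into squalene, lanosterol and finally cholesterol. Fatty acid synthesis draws on the same acetyl-CoA, which is carboxylated, elongated to saturated chains and then desaturated. Both branches are transcribed under SREBP factors, which INSIG and SCAP proteins hold in the endoplasmic reticulum while sterols are plentiful and release when sterols run low, so that in many cell types these genes move as a group.

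SREBP factors bind a sterol response element and usually act with NF-Y, which binds CCAAT, and Sp1, which binds GC boxes. Promoter windows of 300 bases, 250 before and 50 after each RefSeq start in GRCh38.p14, were found for 23 of the 27 measured genes, and not for ACAT2, FDFT1, SQLE and FASN. Letters were searched on both strands, and a gene was counted once if any of its windows matched. TCACNCCAC, one form of the sterol response element, stood in 1 of the 23 genes, SREBF2, against 1.53% of 14543 measured genes with a window. By windows it stood in 1 of the 32 of these genes, against 1.13% of all 35116. CCAAT stood in 19 of the 23, against 42.5% of measured genes, and was missing from CYP51A1, FADS1, PMVK and SREBF1. It stood in 23 of the 32 windows, against 34.6% of all windows. GGGCGG stood in 22 of the 23, against 66.1% of measured genes, and was missing from NSDHL. It stood in 28 of the 32 windows, against 45.0% of all windows. The SREBF2 window is printed because it alone holds the sterol response element letters. The windows of DHCR7 and HMGCS1, both among the genes that differed most on TBBD 1, and of SC5D, which differed in the opposite direction, were chosen after their values were seen, and for these 3 genes, each with 2 windows, the one with the most CCAAT matches is shown (the first listed for SC5D, whose windows tied). Capitals mark every match to the 3 motifs on either strand, and 2 overlapping GC boxes in SREBF2 run together. The windows lie at chr22:41832855-41833154 on the plus strand for SREBF2, chr11:71448344-71448643 on the minus strand for DHCR7, chr5:43313363-43313662 on the minus strand for HMGCS1 and chr11:121292521-121292820 on the plus strand for SC5D.
SREBF2: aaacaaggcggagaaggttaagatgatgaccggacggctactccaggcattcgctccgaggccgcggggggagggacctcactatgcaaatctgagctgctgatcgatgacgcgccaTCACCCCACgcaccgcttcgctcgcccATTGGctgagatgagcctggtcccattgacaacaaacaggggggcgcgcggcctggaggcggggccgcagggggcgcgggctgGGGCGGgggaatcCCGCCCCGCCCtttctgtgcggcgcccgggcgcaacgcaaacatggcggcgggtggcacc
DHCR7: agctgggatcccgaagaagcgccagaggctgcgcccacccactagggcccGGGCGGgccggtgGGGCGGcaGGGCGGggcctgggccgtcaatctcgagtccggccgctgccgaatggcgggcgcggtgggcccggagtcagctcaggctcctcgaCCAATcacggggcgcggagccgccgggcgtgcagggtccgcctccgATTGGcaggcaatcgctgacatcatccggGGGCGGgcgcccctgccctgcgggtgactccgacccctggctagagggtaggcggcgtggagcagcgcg
HMGCS1: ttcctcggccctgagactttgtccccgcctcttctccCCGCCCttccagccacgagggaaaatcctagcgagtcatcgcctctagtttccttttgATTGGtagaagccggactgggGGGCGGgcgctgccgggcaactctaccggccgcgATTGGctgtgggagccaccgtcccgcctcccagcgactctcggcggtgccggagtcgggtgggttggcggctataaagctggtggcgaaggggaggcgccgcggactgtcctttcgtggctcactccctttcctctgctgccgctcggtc
SC5D: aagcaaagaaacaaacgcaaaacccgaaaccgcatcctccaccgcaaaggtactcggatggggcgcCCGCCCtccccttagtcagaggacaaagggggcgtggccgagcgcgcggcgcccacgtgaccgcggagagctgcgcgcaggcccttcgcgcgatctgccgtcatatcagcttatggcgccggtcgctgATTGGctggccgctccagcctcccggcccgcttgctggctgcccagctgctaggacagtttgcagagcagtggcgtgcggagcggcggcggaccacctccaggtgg
A match describes the letters only. SREBF2 held 1 sterol response element match, 1 CCAAT box and 3 GC boxes, DHCR7 held 2 CCAAT boxes and 4 GC boxes, HMGCS1 2 CCAAT boxes and 2 GC boxes, and SC5D 1 CCAAT box and 1 GC box.

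Over both replicates no synthesis gene differed between TBBD and DMSO by limma's moderated test, adjusted by Benjamini-Hochberg over all genes. In limma 0 of the 27 genes passed an adjusted p under 0.05, and so did 0 of all 18640 genes (0.00%). At an unadjusted p under 0.05 limma held 0 of the 27, against 139 genes in all (0.746%). Of the 27, 20 lay lower and 7 higher with TBBD, and their median log2 difference, TBBD minus DMSO, was -0.082, beside -0.0035 over all genes. The median half-width of a gene's unadjusted 95% confidence interval was 0.40 on the log2 scale, and a call after adjustment over all genes takes a larger difference than that. Both TBBD arrays lay below both DMSO arrays for 4 genes (background 10.4%) and above them for 1 (background 10.5%), so the counts were near the background.

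Behind the small mean lay 2 opposite differences. On TBBD 1, set against DMSO 1, 24 of the 27 genes were lower, where 54.7% of all genes were, and their median log2 difference was -0.26, beside -0.021 over all genes. On TBBD 2, set against DMSO 2, 20 of the 27 were higher, where 53.2% of all genes were, with a median of 0.083 beside 0.012. This count is less firm, as ACACA (0.00014), FDPS (0.0018), FADS1 (0.0041) and SREBF2 (0.0057) were barely above 0. With arrays centred on their medians, or with the median over probesets, 16 of the 27 were higher. The combined count that follows shares this limit. The combination of lower in replicate 1 and higher in replicate 2 held 19 of the 27 genes, against 31.7% of all genes, and the reverse combination held 2, SC5D and STARD4, against 23.6%. Lower in both were 5 genes (background 23.0%), namely ACAT2, MVK, MSMO1, FASN and SCD, and higher in both was PMVK alone (background 21.5%). A fold of at least 1.2 below DMSO 1 was reached by 13 of the 27 genes on TBBD 1 (background 10.6%), and a fold of at least 1.2 above DMSO 2 by 5 on TBBD 2 (background 7.77%), a size picked after the values were seen. The opposite folds of that size were reached by SC5D and STARD4 on TBBD 1 (2 genes, background 7.23%) and by SC5D on TBBD 2 (1 gene, background 5.50%). Each of these differences sets 1 array against 1 array, so whether the replicates differ in their response has no spread to be tested against. With bulk RNA, fewer cells of a type and less RNA per cell cannot be told apart.

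**Figure D1:**
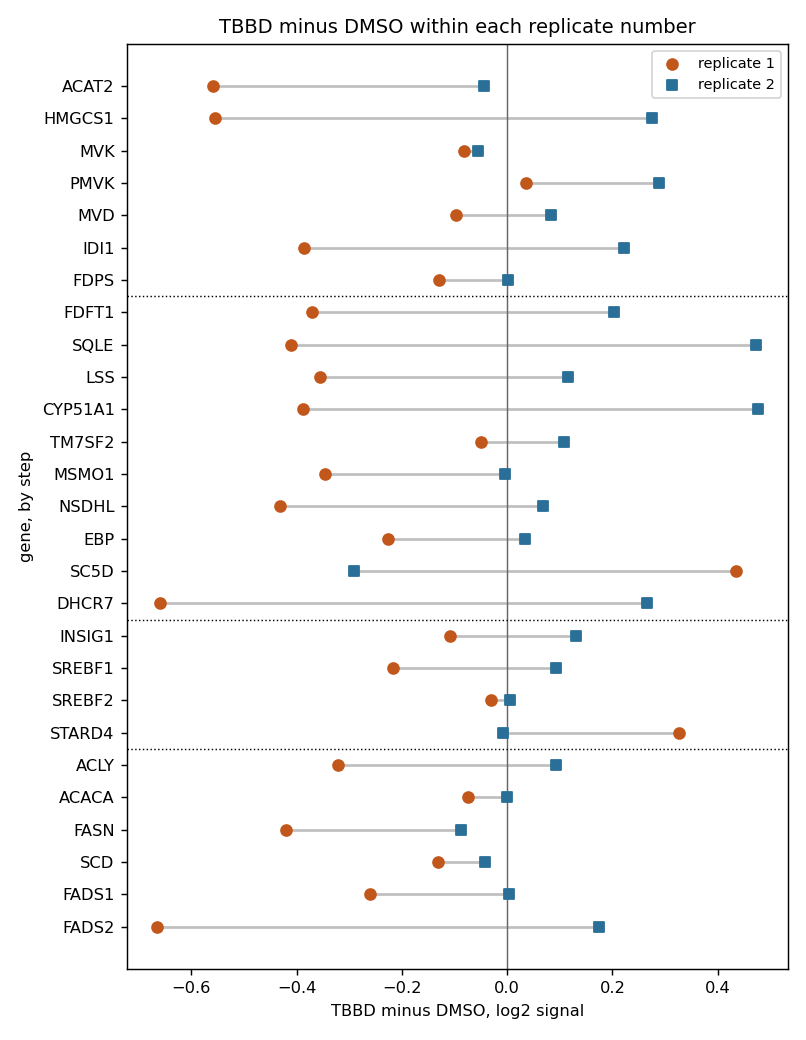
TBBD minus DMSO in log2 signal (horizontal axis) for the 27 measured synthesis genes (rows, grouped by step with dotted lines), within replicate 1 (circles) and replicate 2 (squares), with a grey line joining the 2 values of a gene. The circles lie left of 0 for 24 genes and the squares right of 0 for 20, and SC5D and STARD4 run the opposite way.

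TBBD 1 was the array with the lowest value for 20 of the 27 genes, where it was lowest for 27.9% of all genes. The highest value fell on TBBD 2 for 13 genes (background 29.0%), on DMSO 1 for 12 (29.2%), on TBBD 1 for 2 (22.5%) and on DMSO 2 for none (19.3%). The median over the synthesis genes was thus low on TBBD 1, high on TBBD 2 and DMSO 1, and in between on DMSO 2. It was -0.12, 0.077, 0.061 and -0.016 on TBBD 1, TBBD 2, DMSO 1 and DMSO 2, as differences from each gene's mean. Not every gene had this order. Over the 4 arrays, 5 of the 27 correlated above 0.9 with the median of the others. MVK, PMVK, MSMO1, SREBF2, ACLY and FASN lay between 0.0024 and 0.43, and SC5D and STARD4 at -0.68 and -0.84. Across the 27 genes, which share the same 4 arrays, the replicate 1 and replicate 2 differences had a Pearson correlation of -0.50, and across all 18640 genes one of -0.15. These 2 differences share no array. SC5D, at 0.44 and -0.29, lies far from the other synthesis genes and weighs on the correlation of -0.50.

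**Figure D2:**
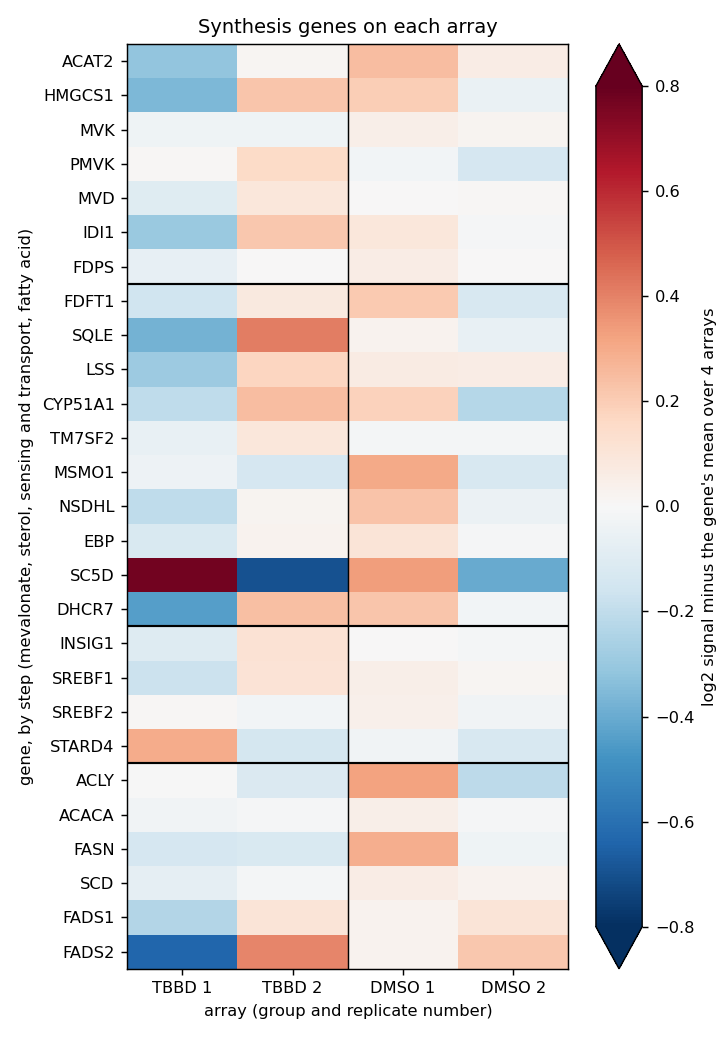
Log2 signal of each synthesis gene (rows, separated by lines into mevalonate, sterol, sensing and transport, and fatty acid genes) on each array (columns), as the difference from that gene's mean over the 4 arrays, red for above and blue for below. TBBD 1 holds the lowest value of 20 of the 27 genes, and SC5D and STARD4 have their highest value there.

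The mevalonate steps lay lower in replicate 1 and mostly higher in replicate 2. Of 7 genes measured, 6 were lower on TBBD 1, with a median of -0.13, and 5 higher on TBBD 2, with a median of 0.083. HMGCS1, the synthase that commits acetyl-CoA to this route in the cytosol, had a log2 signal of 7.62 on TBBD 1 and 8.20 on TBBD 2, against 8.18 on DMSO 1 and 7.93 on DMSO 2. Its lowest and its highest array were thus both TBBD arrays, and the groups overlapped. The differences were -0.56 in replicate 1 and 0.27 in replicate 2, and the difference over both was -0.14 ± 0.23 (SE, 2 arrays a group). All 10 of its probesets were lower on TBBD 1 than on DMSO 1, and 8 were higher on TBBD 2 than on DMSO 2.

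IDI1, which isomerises isopentenyl diphosphate, followed the same order with 6.41 on TBBD 1 and 6.92 on TBBD 2, against 6.80 on DMSO 1 and 6.70 on DMSO 2. Only 5 of its 9 probesets were lower on TBBD 1, so its replicate 1 difference of -0.39 rests on part of the gene. ACAT2, the cytosolic thiolase that makes acetoacetyl-CoA, measured without 1 probeset it shares with TCP1, read 6.001 on TBBD 1 and 6.33 on TBBD 2, against 6.56 on DMSO 1 and 6.37 on DMSO 2. Here both TBBD arrays lay below both DMSO arrays, but the replicate 2 difference was only -0.044, against -0.56 in replicate 1. Over both replicates ACAT2 differed by -0.30 ± 0.16 (SE), and by -0.14 without TBBD 1 or -0.47 without TBBD 2. Its limma p was the smallest among these genes (limma unadjusted p = 0.121), and it did not pass.

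The other mevalonate genes differed little. MVK, mevalonate kinase, stood at -0.082 in replicate 1 and -0.056 in replicate 2, where 5 of its 10 probesets were higher and the lowest lay at -1.19. PMVK, the kinase of the next step, was the only mevalonate gene higher on TBBD 1, at 0.035, and stood at 0.29 in replicate 2, with 5.96 and 6.10 on the TBBD arrays against 5.92 and 5.81 on the DMSO arrays. MVD, the decarboxylase, averaged -0.098 in replicate 1, yet only 2 of its 11 probesets were lower there, 1 of them at -2.78. FDPS, farnesyl diphosphate synthase, measured without 2 probesets it shares with C1orf104, differed from DMSO by -0.13 on TBBD 1 and by 0.0018 on TBBD 2. Its processed pseudogenes make its value uncertain, and their part in the signal was not tested.

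The sterol steps had larger medians in both replicates. Of 10 genes measured, 9 were lower on TBBD 1, with a median of -0.36, and 8 higher on TBBD 2, with a median of 0.11. DHCR7, the reductase that completes cholesterol, read 7.03 on TBBD 1 and 7.72 on TBBD 2, against 7.69 on DMSO 1 and 7.45 on DMSO 2. It was thus 1.58-fold lower on TBBD 1 than on DMSO 1, a log2 difference of -0.66, and higher on TBBD 2 than on DMSO 2 by 0.27. All 9 of its probesets were lower on TBBD 1, and 8 were higher on TBBD 2. Its difference over both replicates was -0.20 ± 0.25 (SE), with a 95% confidence interval from -0.85 to 0.46. Taking the median of its probesets gave -0.011.

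SQLE, squalene epoxidase, a rate-limiting enzyme of the sterol branch, read 7.78 on TBBD 1 and 8.57 on TBBD 2, against 8.19 on DMSO 1 and 8.10 on DMSO 2. CYP51A1, which demethylates lanosterol and was measured on 4 probesets, read 6.84 on TBBD 1 and 7.29 on TBBD 2, against 7.22 on DMSO 1 and 6.81 on DMSO 2. These 2 genes had nearly equal and opposite mean differences, -0.41 and 0.47 for SQLE and -0.39 and 0.48 for CYP51A1. They therefore stood at 0.031 ± 0.27 and 0.045 ± 0.22 (SE) over both replicates. The CYP51A1 probesets ran from -1.09 to 0.030 in replicate 1, and the lowest weighs heavily on the mean of 4. FDFT1, squalene synthase, read 9.25 on TBBD 1 and 9.49 on TBBD 2, against 9.62 on DMSO 1 and 9.29 on DMSO 2. All 11 of its probesets were lower in replicate 1 and 10 were higher in replicate 2.

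LSS, which closes squalene epoxide into lanosterol, differed by -0.36 in replicate 1 and 0.12 in replicate 2. Of its 25 probesets, 18 were lower in replicate 1, and 1 of them lay far from the rest, at -2.74. NSDHL and EBP, a dehydrogenase and an isomerase of the later sterol steps, differed by -0.43 and -0.23 in replicate 1 and by 0.069 and 0.034 in replicate 2. MSMO1, the methyl oxidase that acts before NSDHL, read 8.52 on TBBD 1 and 8.43 on TBBD 2, against 8.87 on DMSO 1 and 8.43 on DMSO 2. For MSMO1 the array that stood apart was DMSO 1, with the other arrays at similar values. TM7SF2, a sterol reductase, differed by -0.049 and 0.11. The 14 probesets that HSD17B7 shares with its pseudogene averaged 6.32 on TBBD 1 and 6.18 on TBBD 2, against 6.38 on DMSO 1 and 6.31 on DMSO 2.

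SC5D, the desaturase that acts just before DHCR7, departed from the other sterol genes. It read 10.1 on TBBD 1 and 8.60 on TBBD 2, against 9.63 on DMSO 1 and 8.89 on DMSO 2. Both replicate 2 arrays lay below both replicate 1 arrays, and the differences between TBBD and DMSO were 0.44 in replicate 1 and -0.29 in replicate 2. In replicate 1 none of its 10 probesets was lower with TBBD. In replicate 2, 3 of the 10 were higher and the lowest lay at -1.65, which weighs on the mean of -0.29. Over both replicates TBBD minus DMSO was 0.072 ± 0.53 (SE). In a fit with replicate number as a second term, added after the values were seen, SC5D was lower in replicate 2 than in replicate 1 by a log2 difference of -1.10 ± 0.18 (SE), and limma called it (adjusted p = 0.0246). It was the only one of the 27 called between the numbers (1 lower, background 1.21%, and 0 higher, background 2.30%), where 653 of all genes were called in either direction (3.50%).

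**Figure D3:**
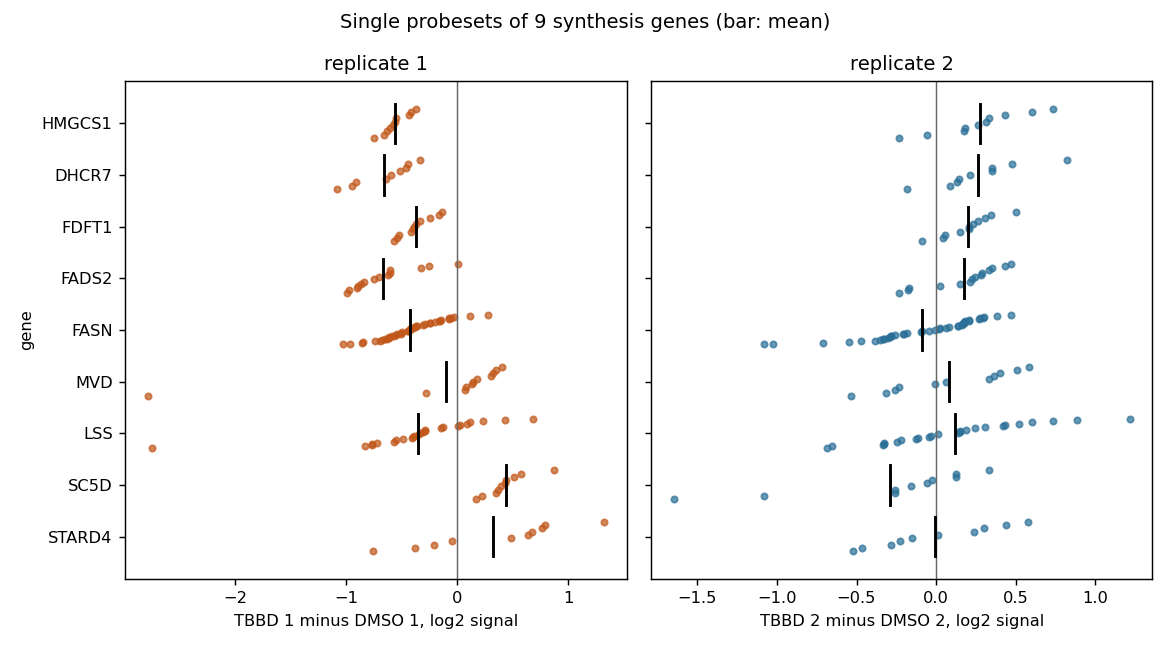
TBBD minus DMSO in log2 signal for single probesets (points) of 9 synthesis genes (rows), in replicate 1 (left) and replicate 2 (right), with a black bar at each gene's mean. In replicate 1 every probeset of HMGCS1, DHCR7 and FDFT1 lies below 0 and every probeset of SC5D above 0, whereas MVD and LSS each hold 1 probeset near -2.8.

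The 4 sensing and transport genes had a median of -0.071 in replicate 1 and 0.049 in replicate 2, with 3 lower and 3 higher. INSIG1, which retains the SREBP complex and is itself an SREBP target, read 6.61 on TBBD 1 and 6.83 on TBBD 2, against 6.71 on DMSO 1 and 6.70 on DMSO 2. SREBF1, which encodes the SREBP forms that favour fatty acid genes, differed by -0.22 in replicate 1 and 0.093 in replicate 2. SREBF2, whose product favours cholesterol genes and whose window held the sterol response element letters, differed by -0.032 and 0.0057, the narrowest pair of the 4. STARD4, a sterol carrier, ran the other way, at 7.25 on TBBD 1 and 6.82 on TBBD 2, against 6.93 on DMSO 1 and 6.83 on DMSO 2. TBBD 1 was the high array for STARD4, although 4 of its 10 probesets were lower there. Over both replicates the median of the 4 genes was -0.0013, with 2 lower and 2 higher.

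Fatty acid genes were all 6 lower on TBBD 1, with a median of -0.29, and had a median near 0 in replicate 2, at 0.0021. FADS2, the delta-6 desaturase of polyunsaturated fatty acids, read 8.80 on TBBD 1 and 9.82 on TBBD 2, against 9.46 on DMSO 1 and 9.65 on DMSO 2. It was 1.59-fold lower on TBBD 1 than on DMSO 1, with 13 of 14 probesets lower, and its difference over both replicates was -0.25 ± 0.35 (SE), or -0.44 by the median of its probesets. FASN, fatty acid synthase, read 8.01 on TBBD 1 and 8.02 on TBBD 2, against 8.43 on DMSO 1 and 8.11 on DMSO 2. Both TBBD arrays lay below both DMSO arrays, 39 of 41 probesets were lower in replicate 1, and the difference over both was -0.25 ± 0.15 (SE, limma unadjusted p = 0.151). Without DMSO 1 the FASN difference was -0.092, and without DMSO 2 it was -0.42.

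ACLY, which splits citrate to supply cytosolic acetyl-CoA, read 9.37 on TBBD 1 and 9.26 on TBBD 2, against 9.69 on DMSO 1 and 9.17 on DMSO 2. For ACLY, as for MSMO1 and FASN, DMSO 1 was the array that stood above the rest. FADS1, the delta-5 desaturase, differed by -0.26 in replicate 1 and 0.0041 in replicate 2, SCD, the stearoyl-CoA desaturase, by -0.13 and -0.043, and ACACA, the acetyl-CoA carboxylase, by -0.075 and 0.00014 over 63 probesets. In replicate 2 the 6 genes therefore lay between -0.087 and 0.17, with FADS2 at the upper end. For FADS1 11 of 17 probesets were higher there, and the lowest lay at -2.02. This probeset lowers the FADS1 mean and with it the median of the 6 genes.

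**Figure D4:**
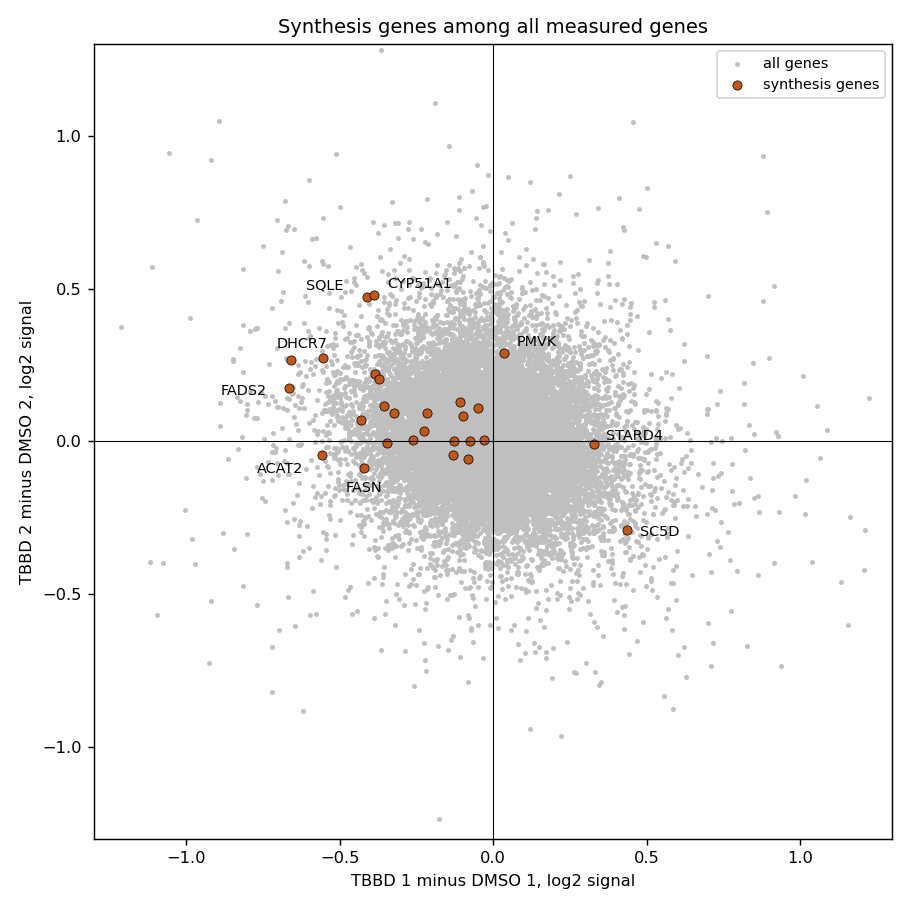
TBBD 1 minus DMSO 1 (horizontal axis) against TBBD 2 minus DMSO 2 (vertical axis), both in log2 signal, for all 18640 genes (grey) and the 27 synthesis genes (orange, 9 of them named). Synthesis genes crowd the upper left, which holds 19 of the 27 against 31.7% of all genes, and 12 genes lie outside the axes.

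Other genes of lipid metabolism, in 4 lists with 75 of 82 genes measured, stood near the background when pooled. Limma called 0 of the 75 at an adjusted p under 0.05, and 0 had an unadjusted p under 0.05. Of the 75, 43 were lower on TBBD 1 and 44 higher on TBBD 2, and 23 did both, against 31.7% of all genes, with medians of -0.019 and 0.038. Among other enzymes of sterol and isoprenoid synthesis 9 of 12 were lower in replicate 1, with a median of -0.087, and 6 higher in replicate 2. Among other genes of fatty acid and lipid synthesis 20 of 32 were lower in replicate 1 and 20 higher in replicate 2. Of the other SREBP regulators 4 of 8 were lower in replicate 1 and 4 higher in replicate 2. SCAP, the escort of SREBP, lay lower in both (-0.23 and -0.12), and MBTPS2, a protease that releases SREBP, higher in both (0.20 and 0.086).

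Further genes were named where their TBBD and DMSO arrays did not overlap, by the size of the difference. ELOVL4, an elongase of very long chains, was higher in both replicates, at 7.00 and 6.75 on the TBBD arrays against 6.65 and 6.40 on the DMSO arrays, a difference of 0.35 ± 0.16 (SE, limma unadjusted p = 0.0758). ELOVL2, an elongase of polyunsaturated chains, differed by 0.0026 and 0.43. IDI2, a relative of IDI1, read 4.95 and 5.04 on the TBBD arrays against 5.22 and 5.12 on the DMSO arrays, all below the median of 5.40 over olfactory receptor genes, which these cells should lack, so no difference is drawn from it. Sterol uptake and efflux genes had 10 of 23 lower in replicate 1. MYLIP, a ubiquitin ligase for lipoprotein receptors and a target of the sterol sensor LXR, differed by 0.44 and 0.16. ABCG1, an LXR target in sterol efflux, read 5.58 on TBBD 1 and 5.91 on TBBD 2, against 5.56 on DMSO 1 and 5.43 on DMSO 2. Only TBBD 2 lay above 5.66, the 95th percentile of the olfactory receptor genes, so the size of its difference cannot be given. ABCA1, the main sterol exporter, chosen after its values were seen, read 8.13 on TBBD 1 and 8.33 on TBBD 2, against 7.28 on DMSO 1 and 8.31 on DMSO 2. Its replicate 1 difference of 0.85 therefore came with a low value on DMSO 1, and limma did not call it (0.44 ± 0.35, SE).

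Cell type markers also differed between arrays. The embryoid bodies carried markers of undifferentiated cells next to germ layer markers. The brightest of the former was LIN28A, at 10.0 and 9.08 on the TBBD arrays and 9.96 and 9.49 on the DMSO arrays. It was higher on TBBD 1 than on DMSO 1, unlike 10 of the 12 pluripotent cell markers. NANOG read far lower, at 6.49 and 6.53 on the TBBD arrays and 6.79 and 6.56 on the DMSO arrays. Primitive streak and mesoderm markers were lower in replicate 1 for 8 of 9, with a median of -0.75, and their summed linear signal was 1582 and 1289 on TBBD 1 and 2, against 2360 and 1322 on DMSO 1 and 2. Pluripotent cell markers were lower for 10 of 12 in replicate 1 and for 10 of 12 in replicate 2, with sums of 2806 and 1875 on the TBBD arrays against 3154 and 2389 on the DMSO arrays. Hepatic and visceral endoderm markers summed to 1380 and 2787 on the TBBD arrays against 1685 and 2418 on the DMSO arrays, and mesenchyme markers to 7503 and 17631 against 6925 and 15787, so both followed the replicate number. In replicate 1, 8 of 16 hepatic and visceral endoderm markers were lower with TBBD, with a median of 0.0084. The brightest on DMSO 1, GATA6 (9.36) and CER1 (8.29), were among the lower, at 9.03 and 6.85 on TBBD 1. APOM, FGA, FGB, FGG, RBP4, TF and AHSG lay below 5.66, the olfactory receptor 95th percentile, on both replicate 1 arrays. In replicate 2 hepatic and visceral endoderm markers were higher with TBBD for 12 of 16, with a median of 0.15, and mesenchyme markers for 12 of 12, with a median of 0.15. Neural markers were lower in replicate 1 for 5 of 7 (background 54.7%), with a median of -0.041. In replicate 2, 5 of 7 were higher (background 53.2%), with a median of 0.23. NEUROG2 lay below 5.66, the olfactory receptor 95th percentile, on every array, and PAX6 and SOX1 exceeded it on TBBD 2 alone. Trophoblast markers were higher for 5 of 7 in replicate 1 and for 4 of 7 in replicate 2, and proliferation markers lower for 5 of 6 and for 4 of 6. Adipocyte and steroidogenic markers, 5 of 9 lower in replicate 1 and 7 of 9 higher in replicate 2, summed to 429 and 484 against 425 and 441. Of these, ADIPOQ, LEP, CIDEC, FABP4, HSD3B2 and NR5A1 lay below 5.66 on every array. No marker can read 0 on this scale. The part of these markers in the replicate 1 and replicate 2 differences of the synthesis genes was not tested.

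The array medians lay between 6.39 and 6.42 on the log2 scale. No detection call was used, and as a rough guide across unlike probes the 348 olfactory receptor genes lay at a median of 5.40, while the synthesis genes averaged from 5.95 for PMVK to 9.43 for FADS2.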

How the data were processed

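RNA was measured on 4 one-colour arrays, 2 TBBD and 2 DMSO. Per the submitters' processing notes the authors used RMA. Its version was not given in the sources used here. Values as deposited by the authors are log2 signals per exon-level probeset, a scale read from the values. Of 247312 probesets, 277 with a placeholder cell were left out. The 218927 others with 1 gene symbol in the platform annotation were averaged per gene, after 2528 older symbols were updated through a RefSeq table, which gave 18640 genes. Depth does not apply to arrays, and their number limits the precision.

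TBBD was compared with DMSO by limma 3.58.1 in R 4.3.3, two-sided, with the group as the only term and Benjamini-Hochberg adjustment over all genes at a threshold of 0.05. Differences within a replicate number carry no test. The fit was tested on simulated data. All synthesis genes are named, and of each further pathway list the 2 largest differences whose groups do not overlap. Genes and lists were chosen with earlier results of these data known. Promoters are from RefSeq (GRCh38.p14). Python 3.11.15, numpy 2.4.6, pandas 2.3.3 and matplotlib 3.10.9 were used. Alternatives were another normalization, filters, probeset summaries, priors, the replicate block and each array left out.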

Additional observations from a re-analysis of the deposited data

How the results depend on the processing

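Under all 13 alternatives run for this comparison limma called 0 of the 27 synthesis genes and 0 of all genes. At an unadjusted p under 0.05 limma held between 0.247% and 2.66% of the genes tested, and of the synthesis genes 0, except 1 of 27 without TBBD replicate 1 (1.44% of all genes) and 2 of 27 without TBBD replicate 2 (1.58%). The replicate 1 median of -0.26 was -0.22 with quantile normalization again, -0.25 with arrays centred on their medians, -0.20 with the median over probesets and -0.35 among the brightest 9320 genes, where 6 synthesis genes drop out. In the same order the replicate 2 median of 0.083 was 0.076, 0.075, 0.048 and 0.069. With the median over probesets 21 genes were lower in replicate 1 and 16 higher in replicate 2, and with arrays centred 24 and 16. These settings within a number were added after seeing the data. With a block for the replicate number, limma called 0 of the 27 genes, the smallest unadjusted p being 0.0844, and held 496 of all genes at an unadjusted p under 0.05, against 139 without the block. The labels do not say that a number marks a batch, and 2 pairs cannot settle it. Deviations of same-numbered arrays from their group means correlated at 0.57 across all genes.

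Leaving out 1 array makes the replicate numbers unequal, and the lone array of a group is assumed to vary like the others. The median over the 27 genes then ran from -0.17 to 0.035, that of the mevalonate steps from -0.10 to 0.085, the last without TBBD replicate 1, of the sterol steps from -0.21 to 0.071, of sensing and transport from -0.049 to 0.026, and of the fatty acid steps from -0.19 to -0.042. The sign held for 9 of the 27 genes, with differences from -0.47 to -0.14 for ACAT2, -0.080 to -0.059 for MVK, 0.091 to 0.23 for PMVK, -0.099 to -0.028 for FDPS, -0.32 to -0.041 for NSDHL, -0.17 to -0.021 for EBP, -0.065 to -0.010 for ACACA, -0.42 to -0.092 for FASN and -0.12 to -0.057 for SCD. It turned for the 18 others, none of them called. Their differences ran from -0.25 to 0.083 for FDFT1, -0.39 to 0.042 for MSMO1, -0.047 to 0.021 for SREBF2, -0.38 to 0.15 for ACLY, -0.37 to 0.43 for SQLE, -0.18 to 0.27 for CYP51A1, -0.66 to 0.81 for SC5D, -0.43 to 0.15 for HMGCS1, -0.10 to 0.085 for MVD, -0.34 to 0.17 for IDI1, -0.35 to 0.11 for LSS, -0.54 to 0.14 for DHCR7, -0.20 to 0.079 for SREBF1, -0.058 to 0.38 for STARD4, -0.30 to 0.040 for FADS1, -0.76 to 0.27 for FADS2, -0.047 to 0.11 for TM7SF2 and -0.10 to 0.12 for INSIG1. With the median over probesets the sign turned for SQLE (-0.0996), LSS (0.028), CYP51A1 (-0.0005), EBP (0.14), SC5D (-0.092), INSIG1 (-0.0084), SREBF2 (0.089) and FADS1 (0.013), and with quantile normalization again for SREBF2 (0.0038). The median over probesets also moved 14 genes of unchanged sign by over 1.5 times, among them IDI1 to -0.45, against -0.082 with the mean, and it put the median of the mevalonate steps at -0.21, against -0.069, of the sterol steps at -0.052, against -0.090, and of sensing and transport at 0.040, against -0.0013. That last median was also above 0 with quantile normalization again (0.014), with arrays centred (0.0020) and among the brightest 9320 genes (0.010). The cause was not tested.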

Other observations

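Outside the synthesis genes examined, 4 further genes of lipid metabolism were chosen after their values were seen. They were lower in replicate 1 and higher in replicate 2, like most sterol genes. TMEM97 and ERG28 were lowest on TBBD 1, but POR and PGD were lowest on DMSO 2. POR, the reductase that passes electrons to CYP51A1 and SQLE, read 7.00 on TBBD 1 and 7.25 on TBBD 2, against 7.34 on DMSO 1 and 6.90 on DMSO 2, so that its differences were -0.34 and 0.35. TMEM97, an endoplasmic reticulum protein tied to sterol transport, differed by -0.33 in replicate 1 and 0.21 in replicate 2. ERG28, a scaffold of the sterol demethylation enzymes, differed by -0.33 and 0.085, and PGD, which supplies NADPH in the pentose phosphate pathway, by -0.36 and 0.044. Limma called none of these 4 over both replicates, where their differences were 0.0062 ± 0.19, -0.059 ± 0.16, -0.12 ± 0.15 and -0.16 ± 0.16 (SE). A replicate 1 fold of at least 1.2 lower held for 8 of the 75 other lipid genes, against 10.6% of all genes. It held for 13 of the 27 synthesis genes and, among the 75, for 4 of the 12 other enzymes of sterol and isoprenoid synthesis.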
